A study of Homo sapiens with 12 samples.

Results

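The 10 genes described here encode enzymes that write or erase histone H3 marks opposing Polycomb repression. They were chosen by symbol: the H3K27 demethylases KDM6A and KDM6B, the histone acetyltransferases CREBBP and EP300, the trithorax-type H3K4 methyltransferases KMT2A, KMT2B, KMT2C and KMT2D, and the H3K36 methyltransferases NSD1 and NSD2. All 10 are among the 28813 genes of the authors' normalized table, and all 10 passed the filter on low counts that left 15015 of 35316 summed genes for testing. The study exposed cultured MKL-1 cells, a long-established line from a Merkel cell carcinoma, to EPZ011989, an inhibitor of the methyltransferase EZH2, and sequenced polyA-selected RNA. The 4 groups of 3 libraries were EPZ011989 for 6 days, vehicle for 6 days, EPZ011989 for 12 days and vehicle for 12 days. EPZ011989 was given at 3 µM in ethanol at 1%, and vehicle cells received the same ethanol alone. All cells were MKL-1 in RPMI medium with serum, diluted with fresh medium at regular intervals, so every group is a single cell line in culture. The libraries held between 15995000 and 20866400 estimated reads. Nothing in the labels tells if replicates were grown apart, so the p-values reflect scatter among these libraries, possibly only technical scatter.

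Polycomb repressive complex 2 (PRC2) methylates H3K27 through its catalytic subunit EZH2 and keeps developmental genes silent. The KDM6 demethylases remove that methyl mark, CREBBP and EP300 place acetyl groups on the same lysine so that it cannot be methylated, and the KMT2 enzymes methylate H3K4 at promoters and enhancers, as trithorax does in flies. NSD1 and NSD2 place dimethylation on H3K36, a mark that hinders PRC2 on the same histone tail.

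The line's own markers were present: all 13 Merkel cell and neuroendocrine markers had reads, and their summed level lay between 2749 and 3110 TPM over the 12 libraries (TPM, a level relative to all transcripts, corrected for transcript length). At day 6 their sum was 2749 to 2788 TPM with EPZ011989 and 3091 to 3106 TPM with vehicle, without overlap. At day 12 it was 3005 to 3070 TPM with EPZ011989 and 2928 to 3110 TPM with vehicle, which overlap. Of the 13, 1 rose and 8 fell at day 6, and 3 rose and 6 fell at day 12. Among all tested genes 17.2% were higher and 17% lower at day 6, and 33.7% higher and 33.3% lower at day 12. All 5 endothelial markers, 4 of 7 fibroblast markers and 5 of 7 leukocyte markers stayed under 1 TPM in every library, with the T cell gene CD3D at 0. Summed fibroblast markers were 27.27 to 35.97 TPM with EPZ011989 and 15.6 to 18.3 TPM with vehicle at day 6. At day 12 the sums were 23.3 to 26.2 TPM with EPZ011989 and 7.94 to 22.7 TPM with vehicle, and their part in the results was not tested. Proliferation genes moved with treatment: 20 of 20 fell at day 12, and their summed level was 1217 to 1265 TPM with EPZ011989 against 4270 to 4663 TPM with vehicle. Whether changes of single enzymes followed that change in the cycling of the cells was not tested, and in bulk RNA fewer cells making a transcript and less of it per cell cannot be told apart.

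On the third principal component of log2 CPM, 1 library, vehicle replicate 1 of day 12, lay far out (-58.6, against -12.7 and 9.6 for the other libraries of its group). Without it 3 of the 10 genes still passed the threshold at day 6 and 6 at day 12.

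The strongest changes of the 10 genes ran in opposite directions: NSD2 was 0.342 times and KDM6B 2.49 times its vehicle level after 12 days. The 250 bases before the annotated start sites of both genes are given from RefSeq (GRCh38.p14, plus strand), with every CpG dinucleotide in capitals. The NSD2 window is chr4:1871143-1871392, and the KDM6B windows are chr17:7833967-7834216 (upstream) and chr17:7839667-7839916 (downstream).
NSD2: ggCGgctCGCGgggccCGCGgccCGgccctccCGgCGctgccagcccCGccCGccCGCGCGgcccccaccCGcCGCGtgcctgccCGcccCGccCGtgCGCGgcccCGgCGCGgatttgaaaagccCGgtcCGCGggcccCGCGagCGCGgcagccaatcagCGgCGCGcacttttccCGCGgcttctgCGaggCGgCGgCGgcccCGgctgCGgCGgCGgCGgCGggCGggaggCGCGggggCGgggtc
KDM6B upstream: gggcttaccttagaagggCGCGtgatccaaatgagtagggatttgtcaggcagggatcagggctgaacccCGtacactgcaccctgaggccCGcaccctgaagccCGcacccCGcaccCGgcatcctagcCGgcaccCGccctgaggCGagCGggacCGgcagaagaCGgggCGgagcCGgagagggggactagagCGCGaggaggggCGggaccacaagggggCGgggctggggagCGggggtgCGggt
KDM6B downstream: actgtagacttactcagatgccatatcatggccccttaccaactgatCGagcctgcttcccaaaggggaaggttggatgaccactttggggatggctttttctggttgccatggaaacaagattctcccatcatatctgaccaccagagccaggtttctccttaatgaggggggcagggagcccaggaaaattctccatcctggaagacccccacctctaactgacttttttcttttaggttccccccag

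The NSD2 window holds 50 CpG dinucleotides and is 86% G or C, against a median of 11 CpG dinucleotides over 35114 windows of the same length, of which 0.148% hold 50 or more. It contains TTTGAA, the core letters of the cell cycle genes homology region, from base 116, and CCAAT, the NF-Y core, from base 155. On either strand TTTGAA occurs in 13.3% and CCAAT in 32% of all windows, and the 2 matches do not overlap. The E2F-type words TTTCGCGC and TTTGGCGC, found in 0.439% and 0.55% of windows, were not found in it. Each match describes letters only. The best covered NSD2 transcript is annotated to start 31 bases from the start site of this window. The next best covered ones, among them all other forms whose shares are given below, start between 21452 and 80712 bases away. The upstream KDM6B window holds 21 CpG dinucleotides and the downstream window 1; of all windows, 14.7% hold 1 or fewer. The best covered KDM6B transcripts, KDM6B-201 and KDM6B-202, are annotated to start within 13 and 45 bases of the downstream start. None of the 4 motif words was found in either KDM6B window. All 10 genes matched RefSeq entries, with 16 windows in all and between 1 and 50 CpG dinucleotides each.

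NSD2, also known as MMSET, was the gene of the 10 with the steepest fall. It lies at chr4:1871424-1982207 on the plus strand (GRCh38, GENCODE 29, as for all loci here). At day 6 its level was 288.6, 295.0 and 297.6 CPM (its reads scaled to the size of the library) with EPZ011989, against 397.0, 412.8 and 411.5 CPM with vehicle. At day 12 it was 131.1, 138.0 and 133.8 CPM with EPZ011989, against 378.6, 392.8 and 405.6 CPM with vehicle. Every treated library lay below every vehicle library of its day, and the vehicle libraries of both days overlapped. The log2 fold change was -0.47 ± 0.04 (SE, adjusted p = 2.94e-07) at day 6 and -1.55 ± 0.04 (adjusted p = 2.34e-13) at day 12, each from edgeR's quasi-likelihood test. The difference between the treatment effects at day 12 and day 6 was -1.08 ± 0.05 (adjusted p = 2.18e-09). Limma on the authors' normalized table of the same libraries gave -0.47 and -1.62. NSD2 passed the threshold in all 23 alternative analyses at both days.

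The share of the gene's TPM held by single NSD2 transcripts differed in part between the groups of day 12. NSD2-219, the protein-coding form with the highest level, held 27.4 to 32.7% with EPZ011989 and 33.7 to 35.8% with vehicle. NSD2-207, the longer protein-coding form, held 15.1 to 16.2% with EPZ011989 and 11.4 to 11.9% with vehicle, and NSD2-210, a processed transcript, held 15.7 to 23.3% with EPZ011989 and 13.3 to 15.6% with vehicle. The groups did not overlap in these 3 transcripts. The shares of NSD2-203, a shorter protein-coding form, overlapped (6.75 to 21.5% with EPZ011989 and 16.5 to 17.6% with vehicle). So did the protein-coding form ranked 5 by level (4.71 to 8.43% with EPZ011989 and 3.99 to 6.15% with vehicle). At day 6 NSD2-207 was apart, at 12 to 13.76% with EPZ011989 and 10.64 to 11.22% with vehicle. NSD2-219 overlapped at that day (31.84 to 37.1% with EPZ011989 and 23.5 to 35.65% with vehicle), its mean being higher in treated cells. NSD2-210 and NSD2-203 overlapped at day 6 as well. These shares were not tested.

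NSD1, the paralogue mutated in Sotos syndrome, did not share the fall. It lies at chr5:177133025-177300215 on the plus strand. Its level was 243.0 ± 4.7 CPM with EPZ011989 and 238.7 ± 4.7 CPM with vehicle at day 6 (SD, n = 3 libraries, as below). At day 12 it measured 280.7, 271.7 and 262.8 CPM with EPZ011989 and 246.6, 248.6 and 255.4 CPM with vehicle. The treated libraries lay above the vehicle libraries, by a log2 fold change of 0.12 ± 0.04 (adjusted p = 0.0115). That call held in 17 of 23 alternatives. It was lost with limma on the authors' table, where the log2 fold change was 0.04 (adjusted p = 0.743). EdgeR with transcript lengths as an offset also gave 0.04 (adjusted p = 0.786). The call was lost as well in edgeR with no low-count filter (adjusted p = 0.060) or only the libraries of the contrast (adjusted p = 0.053), and at an adjusted p under 0.01.

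The balance of the mRNAs of the 2 H3K36 enzymes therefore turned over. On the TPM scale the log2 ratio of NSD2 to NSD1 was -0.46, -0.11 and -0.31 with EPZ011989 at day 12, against 1.19, 1.61 and 1.32 with vehicle. At day 6 it averaged 1.10 with EPZ011989 and 1.59 with vehicle, also with no overlap. NSD2 had thus the higher level in every library except the 3 treated ones of day 12, in which NSD1 did. Ratios are descriptions and carry no test.

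KDM6B, the JMJD3 demethylase that is induced by many differentiation and stress signals, was the gene of the 10 with the steepest rise. It lies at chr17:7839904-7854796 on the plus strand. At day 6 it measured 104.2, 99.03 and 107.8 CPM with EPZ011989, against 86.65, 92.49 and 89.44 CPM with vehicle. Day 12 libraries held 185.4, 197.3 and 202.0 CPM with EPZ011989, against 67.99, 77.21 and 89.64 CPM with vehicle. The groups did not overlap at either day, but the gap was small at day 6 and wide at day 12. The log2 fold change at day 12 was 1.32 ± 0.08 (adjusted p = 1.64e-09), and it passed the threshold in all 23 alternatives. At day 6 it was 0.21 ± 0.08 (adjusted p = 0.0491). Leaving out any library of that day ended the day 6 call, with log2 fold changes between 0.18 and 0.26, as did leaving out replicate 2 of the day 12 vehicle group (adjusted p = 0.062) or replicate 3 of the day 12 EPZ011989 group (adjusted p = 0.060), while limma on the authors' table gave 0.37 (adjusted p = 0.0398). The treatment effects of the 2 days differed by 1.10 ± 0.11 (adjusted p = 1.63e-06).

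KDM6A, the X-linked UTX demethylase and a partner of the KMT2C and KMT2D complexes, gave no change that held. It lies at chrX:44873177-45112602 on the plus strand. The transcripts that could be matched to it held a median of 0.404 of the level in the authors' table, relative to the median gene, so its summed reads are incomplete. In the authors' normalized table it stood at 943.2, 813.6 and 818.3 with EPZ011989 and at 895.2, 981.9 and 906.7 with vehicle at day 6. At day 12 the values were 935.7, 1144 and 1021 with EPZ011989 and 1292, 882.1 and 886.3 with vehicle. Both pairs of groups overlapped, and replicate 1 of the day 12 vehicle group was the highest of all. Limma on these values gave a log2 fold change of 0.04 ± 0.13 at day 12 (adjusted p = 0.822). The matched reads alone gave 0.61 ± 0.25 (adjusted p = 0.0457) in edgeR, with overlapping groups and adjusted p-values between 0.000967 and 0.822 over the alternatives. Without replicate 1 of the day 12 vehicle group the edgeR value was 0.99, without replicate 1 of the day 12 EPZ011989 group it was 0.34, and without replicate 2 of the day 12 vehicle group 0.35, neither passing the threshold; the call was also lost, with values between 0.55 and 0.61, without replicate 3 of the day 12 vehicle group, replicates 2 or 3 of the day 6 vehicle group or any day 6 EPZ011989 library. The log2 ratio of KDM6B to KDM6A in the authors' table averaged 1.81 with EPZ011989 and 0.42 with vehicle at day 12, and the groups did not overlap. On the TPM scale, where the KDM6A reads are incomplete, the same ratio overlapped between groups.

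**Figure D1:**
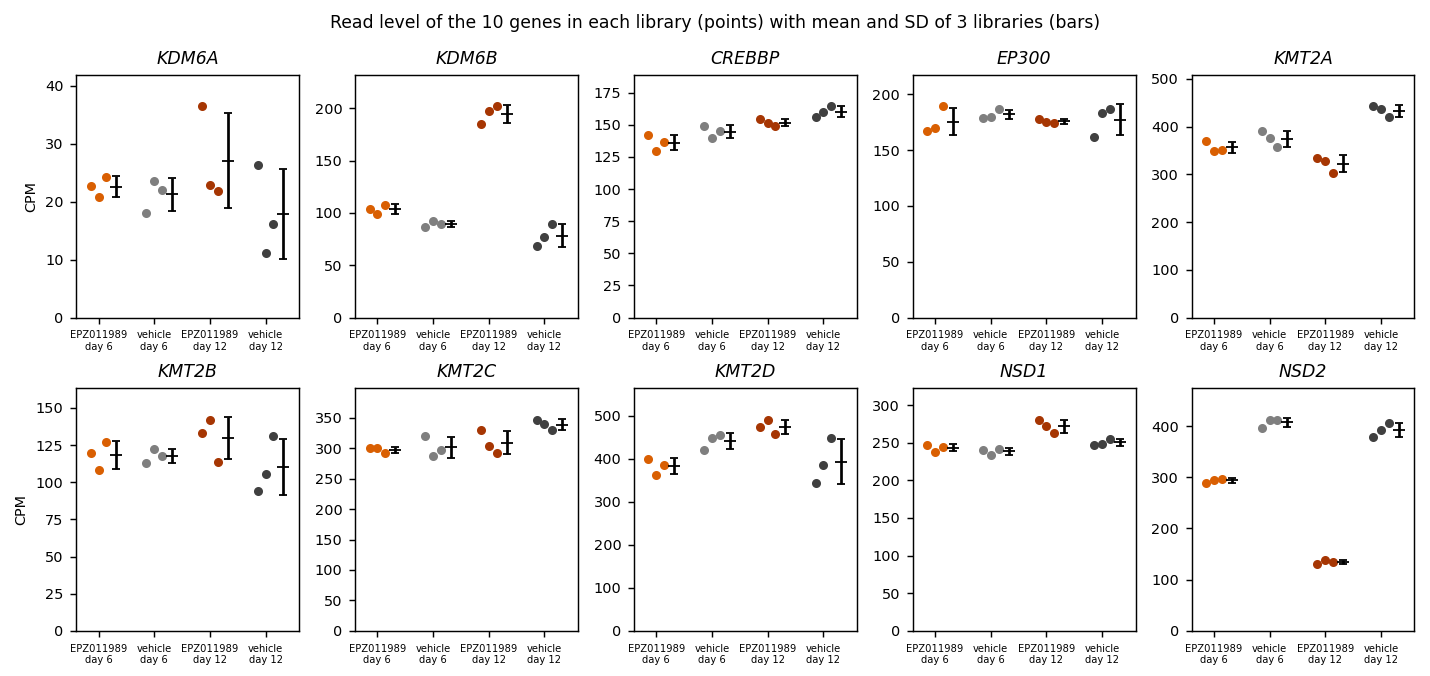
CPM of each of the 10 genes (vertical axes from 0) in the 12 libraries, with points for libraries and bars for mean and SD of 3 libraries. NSD2 is lowest and KDM6B highest in the EPZ011989 libraries of day 12, while EP300 overlaps between EPZ011989 and vehicle at each day. KDM6A rests on incompletely matched reads.

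CREBBP and EP300, paralogous acetyltransferases that write H3K27 acetylation and act as coactivators, showed no treatment effect past the threshold at either day. CREBBP lies at chr16:3725054-3880726 on the minus strand, and EP300 at chr22:41091786-41180079 on the plus strand. CREBBP measured 141.9, 129.9 and 136.9 CPM with EPZ011989 and 149.2, 139.5 and 145.2 CPM with vehicle at day 6. In the day 12 libraries CREBBP stood at 154.7, 151.4 and 149.1 CPM with EPZ011989 and 156.3, 160.0 and 164.5 CPM with vehicle. The day 6 groups overlapped, and the day 12 treated libraries lay just below the vehicle ones. The log2 fold change at day 12 was -0.08, with a 95% interval of -0.18 to 0.02. The sign of this small value depends on the source, since limma on the authors' table gave 0.12 (adjusted p = 0.230).

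EP300 averaged 175.4 ± 12.2 CPM with EPZ011989 and 182.1 ± 4.2 CPM with vehicle at day 6. At day 12 the averages were 176.0 ± 2.2 CPM with EPZ011989 and 177.5 ± 14.01 CPM with vehicle. Its groups overlapped at both days. The 95% interval of the day 12 log2 fold change was -0.14 to 0.11, so a change as large as that of KDM6B or NSD2 lies outside it. In the authors' table the log2 fold change was 0.18 (adjusted p = 0.211). The log2 ratio of EP300 to CREBBP in TPM averaged 0.63 with EPZ011989 and 0.50 with vehicle at day 12, with overlap.

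Among the H3K4 methyltransferases, KMT2A fell and KMT2D rose at day 12 in all alternatives. KMT2C fell by a small amount that not all alternatives kept, and KMT2B, with a log2 fold change of 0.24 close to the 0.27 of KMT2D, did not pass the threshold. Differences between genes were not tested. KMT2A, the MLL1 enzyme of leukaemia translocations, lies at chr11:118436464-118526832 on the plus strand. At day 6 it measured 370.3, 349.5 and 351.5 CPM with EPZ011989 and 391.8, 375.4 and 358.3 CPM with vehicle. After 12 days KMT2A measured 335.2, 329.1 and 302.1 CPM with EPZ011989 and 442.9, 436.8 and 419.7 CPM with vehicle. The groups overlapped at day 6 and were apart at day 12. The log2 fold change was -0.07 ± 0.05 (adjusted p = 0.275) at day 6 and -0.43 ± 0.05 (adjusted p = 1.61e-06) at day 12, and the day 12 fall passed the threshold in all 23 alternatives. The difference of the treatment effects was -0.36 ± 0.07 (adjusted p = 0.000535) in edgeR and -0.17 (adjusted p = 0.175) in limma on the authors' table. Within each arm, day 12 lay below day 6 in treated cells (log2 fold change -0.15) and above it in vehicle cells (log2 fold change 0.21). The treated value was -0.01 in the authors' table and no longer passed, nor did it without replicate 1 of the day 6 EPZ011989 group (-0.13) or replicate 3 of the day 12 one (-0.11). The vehicle rise was lost without any of replicates 2 and 3 of day 6 and replicates 1 and 2 of day 12, with values between 0.18 and 0.22. AP001267.5, a gene on the same strand with a mean of 2.00 TPM, overlaps KMT2A, and reads in the shared part cannot be assigned with certainty.

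KMT2D, the MLL4 enhancer methyltransferase, lies at chr12:49018975-49059774 on the minus strand. At day 6 it measured 399.5, 362.3 and 386.7 CPM with EPZ011989 and 421.4, 448.1 and 455.3 CPM with vehicle, the treated libraries being lower. After 12 days KMT2D stood at 473.2, 491.4 and 457.0 CPM with EPZ011989 and 344.3, 386.5 and 449.5 CPM with vehicle, the treated libraries being higher. Log2 fold changes were -0.21 ± 0.07 (adjusted p = 0.0450) at day 6 and 0.27 ± 0.07 (adjusted p = 0.00520) at day 12. The day 12 rise passed in all 23 alternatives, with values between 0.18 and 0.51, the lowest being that without replicate 1 of the day 12 vehicle group. The day 6 fall passed in 7 of 23; leaving out any day 6 library, any day 12 EPZ011989 library or replicate 2 of the day 12 vehicle group ended it, with values between -0.24 and -0.16. Limma on the authors' table gave -0.10 (adjusted p = 0.672) at day 6, and edgeR with transcript lengths as an offset gave -0.08 (adjusted p = 0.759). The effects of the 2 days differed by 0.47 ± 0.10 (adjusted p = 0.00184) in edgeR, but the difference did not pass with transcript lengths as an offset (0.58, adjusted p = 0.0619). From day 6 to day 12 the edgeR log2 fold change of KMT2D was 0.31 in treated cells (adjusted p = 0.0026) and -0.17 in vehicle cells (adjusted p = 0.143). In the authors' table the day 12 groups overlapped, at 7366, 10980 and 8590 with EPZ011989 and 5142, 5709 and 8228 with vehicle.

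KMT2C, the MLL3 paralogue of KMT2D, lies at chr7:152134922-152436005 on the minus strand, and segments of it recur in other parts of the genome, so its counts may be split. KMT2C libraries of day 12 measured 329.7, 304.3 and 292.3 CPM with EPZ011989 and 347.0, 338.9 and 329.9 CPM with vehicle, treated libraries being lower by a narrow margin. The log2 fold change was -0.13 ± 0.05 (adjusted p = 0.0277), and 12 of 23 alternatives kept the call. It was lost without replicates 1 or 2 of the vehicle group (-0.12 and -0.14) or replicates 2 or 3 of the EPZ011989 group (-0.11 and -0.10), and was -0.02 in the authors' table (adjusted p = 0.780). At day 6 the 95% interval was -0.13 to 0.09.

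KMT2B, the MLL2 enzyme of bivalent promoters, lies at chr19:35718019-35738878 on the plus strand. IGFLR1, on the opposite strand with a mean of 17.6 TPM, overlaps it, and without strand information reads from the shared part cannot be told apart. At day 12 it measured 133.2, 142.2 and 113.9 CPM with EPZ011989 and 94.20, 105.8 and 131.0 CPM with vehicle, which overlap. Its log2 fold change was 0.24 ± 0.10 (adjusted p = 0.0621). It passed the threshold without replicate 3 of the day 12 vehicle group (0.38) or replicate 3 of the day 12 EPZ011989 group (0.32). Without replicate 1 of the day 12 vehicle group it was 0.13 (adjusted p = 0.260), and over the 23 alternatives adjusted p-values lay between 0.00173 and 0.399. At day 6 the 95% interval was -0.22 to 0.23.

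In TPM, the log2 ratio of KMT2A to KMT2B at day 12 was 0.90, 0.67 and 1.01 with EPZ011989 against 1.62, 1.43 and 1.28 with vehicle. The ratio of KMT2C to KMT2D was -0.56, -1.13 and -0.74 with EPZ011989 against -0.03, -0.26 and -0.54 with vehicle. Both ratios were lower in every treated library than in every vehicle library of day 12, and both overlapped at day 6. For KMT2C to KMT2D the day 12 margin was very narrow, with the nearest libraries at -0.558 with EPZ011989 and -0.541 with vehicle.

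**Figure D2:**
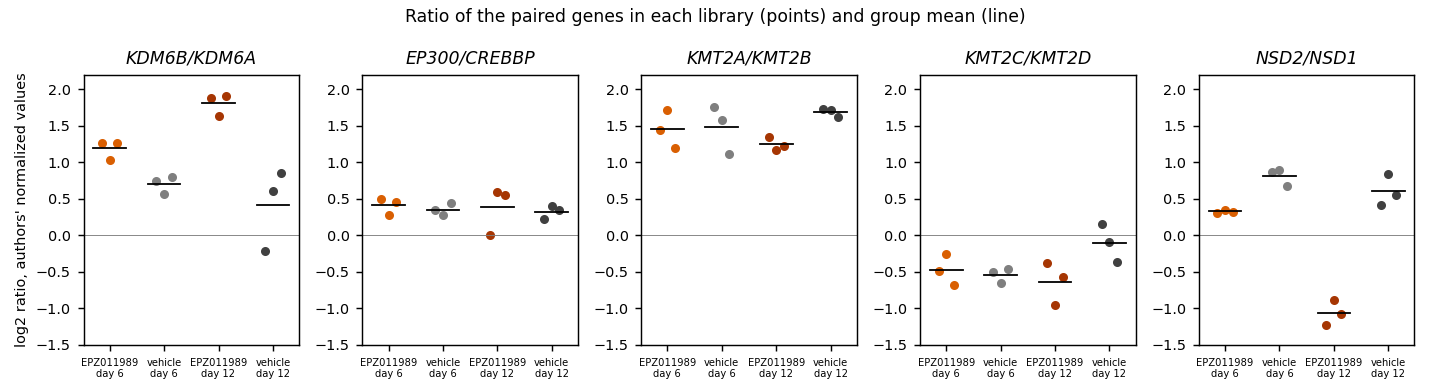
Log2 ratio of each pair of related genes from the authors' normalized values (vertical axis) in each library, with points for libraries and lines for group means. At day 12 the NSD2/NSD1, KMT2A/KMT2B and KMT2C/KMT2D ratios lie lower and the KDM6B/KDM6A ratio higher with EPZ011989 than with vehicle, and EP300/CREBBP overlaps.

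Counted together, 3 of the 10 genes passed the threshold of an adjusted p under 0.05 at day 6 (1 rose and 2 fell), against 34.1% of all tested genes. At day 12, 7 passed (4 rose and 3 fell), against 66.9% of all tested genes. Both counts lie near the share of the whole transcriptome. In the direction of the calls, 17.2% of all genes were higher and 17% lower at day 6, and 33.7% higher and 33.3% lower at day 12. Limma on the authors' values passed 2 of the 10 at day 6, against 24.3% of its genes, and 4 at day 12, against 60.8%. The CPM of the groups did not overlap for 3 of the 10 at day 6, against 51% of all genes, and for 7 at day 12, against 69.1%. The median log2 fold change of the 10 was -0.04 at day 6 and 0.05 at day 12, against -0.02 and 0.02 over all tested genes. Their median size regardless of sign was 0.25 at day 12, against 0.53 over all tested genes. The difference between the treatment effects of the days passed for 4 of the 10 (KDM6B and KMT2D upward, KMT2A and NSD2 downward), against 47.7% of all tested genes (22.6% upward and 25.1% downward). Limma on the authors' table passed 3 of the 10, against 37.2% of its genes. A further gene passed without replicate 1 of the day 12 vehicle group (KDM6A, 0.91), without replicate 3 of that group (KMT2B, 0.36) or without replicate 1 of the day 12 EPZ011989 group (KMT2C, -0.17).

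By class at day 12, the 2 demethylases rose in the edgeR fit, one of them only in the incomplete KDM6A reads, neither acetyltransferase passed, 1 H3K4 methyltransferase rose and 2 fell, and 1 H3K36 methyltransferase rose and 1 fell. At day 6, 1 demethylase rose and 1 methyltransferase of each kind fell. The 2 treatment comparisons share no library, but both use the same fit.

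**Figure D3:**
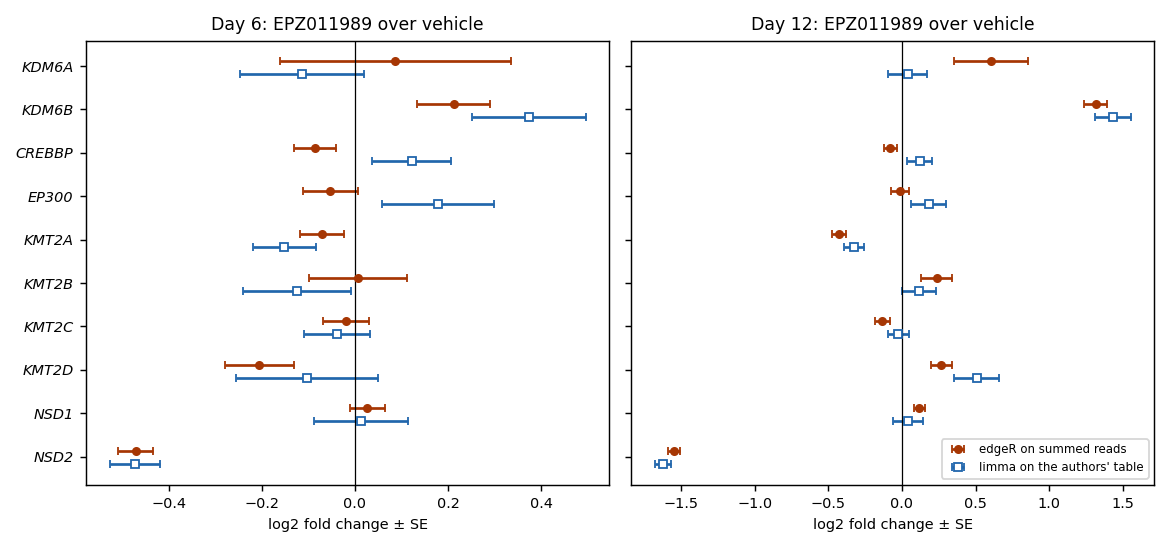
Log2 fold change of EPZ011989 over vehicle (horizontal axes, with SE) for the 10 genes at day 6 and day 12, from edgeR on summed reads (filled) and limma on the authors' table (open); the 2 panels have different horizontal scales. NSD2 and KDM6B stand farthest from 0 at day 12, and there the 2 sources differ most for KDM6A.

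Over time in treated cells, day 12 against day 6, 6 of the 10 passed (4 upward and 2 downward), against 57.6% of all tested genes (27.8% upward and 29.8% downward). Limma on the authors' table passed 3 of them, against 49% of its genes, and the CPM of 6 did not overlap between days, against 67.1% of all genes. NSD2 fell by a further 1.13 on the log2 scale and KDM6B rose by 0.91, against -1.18 and 0.89 in the authors' table, while CREBBP (0.15), KMT2D (0.31) and NSD1 (0.16) rose and KMT2A fell. KMT2D (0.28, adjusted p = 0.150) and NSD1 (0.21, adjusted p = 0.0991) did not pass with limma on the authors' table. KDM6A (0.26), KMT2B (0.13), KMT2C (0.06) and EP300 (0.005) did not pass in edgeR. CREBBP lost its call without replicate 2 of the day 6 EPZ011989 group (0.12). In vehicle cells 3 of the 10 passed, against 13.2% of all tested genes (6.07% upward and 7.15% downward), and these were upward: CREBBP (0.15), KMT2A (0.21) and KMT2C (0.17). The log2 fold changes of the other 7 lay between -0.26 (KDM6A) and 0.07 (NSD1). None of the 10 passed with limma on the authors' table, where 0.971% of all genes did and 3 of the 10 had an unadjusted p under 0.05. The CPM of 4 of the 10 did not overlap between the days in vehicle cells, against 28.9% of all genes. Without replicate 3 of the day 12 vehicle group 5 of the 10 passed. The further ones were KDM6B (-0.29) and KMT2D (-0.27), both lower at day 12. With all libraries their edgeR values in vehicle cells were -0.19 (adjusted p = 0.113) and -0.17 (adjusted p = 0.143), and neither passed. None of the 10 passed without replicate 1 or 2 of the day 12 vehicle group or replicate 2 or 3 of the day 6 vehicle group. In those fits 3 or 4 had an unadjusted p under 0.05. Only 1 passed without replicate 1 or 3 of the day 6 EPZ011989 group.

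Per length, KMT2D led the 10 genes in EPZ011989 cells of day 12 at 74.5 ± 15.1 TPM, with KDM6B at 56.7 ± 3.1 TPM and NSD2 at 42.2 ± 1.5 TPM. The levels of KMT2D, EP300, KDM6B, KMT2A and NSD1 overlapped from each to the next there, and NSD2, ranked 6, overlapped with KMT2C. In vehicle cells of day 12 NSD2 was highest, at 120.5 ± 4.8 TPM, and its range did not overlap that of KMT2A at 62.6 ± 2.0 TPM. KMT2D, NSD1, EP300 and KMT2C followed between 49.0 and 39.6 TPM, and neighbours in that order overlapped. CREBBP, at 31.2 TPM, and KMT2B, at 23.1 TPM, came next, and KDM6B ranked 9 at 19.7 ± 3.6 TPM. At day 6 NSD2 was first in both groups, at 90.2 ± 4.1 TPM with EPZ011989 and 122.2 ± 6.2 TPM with vehicle. KDM6A was last in all groups, with incomplete reads.

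The genes whose log2 CPM followed that of each class's leading gene most closely over the 12 libraries were sought among the 10251 genes averaging 10 CPM or more. For NSD2 they were MYBL2, a transcription factor of the cell cycle (Pearson r = 0.9993), ACSF2 (0.9987) and CDCA5, the cohesin protector sororin (0.9986). For KDM6B they were the antiproliferative gene BTG2 (0.9971), the actin regulator EVL (0.9959) and the adaptor SHC2 (0.9955). For KMT2A the closest was SPATS2 (0.9828) and for CREBBP UEVLD (0.93). The 12 libraries share 4 groups, so these values describe likeness of group pattern and carry no test. MYBL2 itself had a log2 fold change of -0.76 at day 6 and -2.67 at day 12, against -0.47 and -1.55 for NSD2, and it is 1 of the 20 proliferation genes counted here.

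Around the 10 genes, other enzymes and partners of the same marks were counted from lists. The counts that follow stand beside 17.2% higher and 17% lower among all tested genes at day 6, and 33.7% higher and 33.3% lower at day 12. Of 19 subunits and partners of KMT2 and SETD1 complexes, 2 SETD1 enzymes and KMT2E included, 1 rose and 9 fell at day 6, and 2 rose and 13 fell at day 12, with a median log2 fold change of -0.23 at day 12. The falls at day 12 included PAXIP1, a subunit of the KMT2C and KMT2D complexes (-1.15), PSIP1, the chromatin tether of KMT2A (-0.81), the core subunit DPY30 (-0.78), and CXXC1, the CpG binder of the SETD1 complexes (-0.76). Of 8 further acetyltransferases none rose and 5 fell at day 12, led by HAT1, which acetylates new histones (-1.495).

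Among erasers of H3K4 and H3K36 methylation, KDM5B and KDM4B rose and KDM2B fell at day 12. Of 7 H3K4 demethylases 2 rose and 3 fell at day 12. KDM5B, which removes H3K4 trimethylation, measured 257.8, 233.1 and 241.9 CPM with EPZ011989 against 73.21, 72.56 and 72.95 CPM with vehicle. KDM2B, which recruits a variant PRC1 complex to CpG islands, fell by 1.07 on the log2 scale (adjusted p = 1.63e-09). Of 8 further H3K36 enzymes 2 rose and 4 fell. KDM4B, which demethylates H3K9 and H3K36, measured 316.1, 317.6 and 331.0 CPM with EPZ011989 against 84.41, 92.47 and 101.0 CPM with vehicle. SETD2, the H3K36 trimethylase, was lower with EPZ011989 than with vehicle at day 12 by 0.29 on the log2 scale. From day 6 to day 12 its log2 fold change in edgeR was -0.05 in treated cells (adjusted p = 0.476) and 0.23 in vehicle cells (adjusted p = 0.0202).

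Of 6 other JmjC demethylases 2 rose and 2 fell at day 12. KDM7A, which can demethylate H3K27 dimethylation, had a log2 fold change of 0.65 at day 6 and 1.71 ± 0.13 at day 12 (adjusted p = 3.96e-08), so it rose alongside KDM6B. Of 11 histone deacetylases 7 rose and 2 fell. HDAC10 (1.17) and HDAC5 (0.95) rose, and HDAC2 (-0.58) and HDAC1 (-0.38) fell. The largest log2 fold change among them, 1.83, was that of HDAC11, named after its values were seen, which was low at 5.53 ± 0.39 CPM with EPZ011989 and 1.55 ± 0.07 CPM with vehicle. Of 6 bromodomain readers 1 rose and 4 fell, among them TRIM24 (-0.55), which binds modified histone H3.

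EZH2, the drug's target, measured 136.7, 138.3 and 142.3 CPM with EPZ011989 and 155.8, 159.9 and 155.8 CPM with vehicle at day 6. By day 12 EZH2 stood at 60.81, 61.89 and 57.22 CPM with EPZ011989 and 182.2, 177.8 and 163.6 CPM with vehicle. The inhibitor acts on the enzyme's activity, so its mRNA level does not check the treatment. Of 6 PRC2 core genes 1 rose and 5 fell at day 12, with EZH2 at -1.54 ± 0.05, close to the value of NSD2. Of the 20 proliferation genes 17 fell at day 6 and 20 at day 12, with a median log2 fold change of -0.30 at day 6 and -2.06 at day 12.

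**Figure D4:**
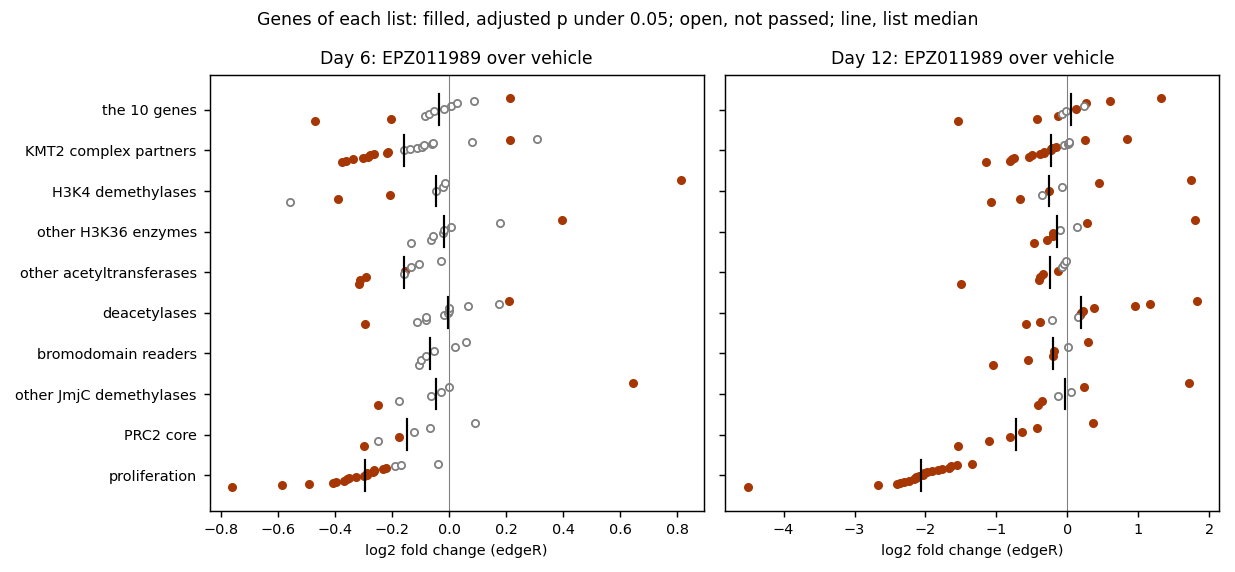
Log2 fold change of EPZ011989 over vehicle (horizontal axes, different scales at day 6 and day 12) for the 10 genes and the genes of 9 further lists; filled points passed an adjusted p under 0.05, open points did not, and lines mark list medians. At day 12 the proliferation genes lie at a median of -2.06 and the deacetylases at 0.19.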

How the data were processed

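PolyA RNA of 12 MKL-1 libraries, grouped by their titles, was analysed. The authors deposited expected counts and TPM per transcript from Salmon 1.2.0, and a table of normalized gene signal; per the submitters' processing notes they also used FastQC, DESeq2 and hg38. The normalization of that table is not stated in any source used here. Of 179883 transcripts, 168180 (93.5%) matched a GENCODE 29 gene by identifier; unmatched ones held 3.11 to 3.62% of reads. Reads of matched transcripts were added up by gene, then rounded. Depth was 15995000 to 20866400 reads. edgeR 4.0.16 (R 4.3.3; filterByExpr, TMM, quasi-likelihood, two-sided, Benjamini-Hochberg over 15015 genes) fitted all 12 libraries with 1 coefficient per group; the SE is the log2 fold change over the square root of F. Limma 3.58.1 on log2(authors' value + 1), which understates changes of low genes, used 14618 rows with at least 10 in 3 libraries. DESeq2 1.42.0 was an alternative. The scripts were tested on simulated counts.

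All 10 genes were described in the treatment comparisons. Each list gave up to 4 called genes with the smallest day 12 p, plus EZH2. Only some of these genes are named in the text, while the counts of rises and falls cover each whole list. The closest genes by correlation were sought for 1 gene per class, and only some of them are named. A gene that the rule took is not reported here. The genes and lists were chosen with earlier results of these data known. The smallest p of an exact permutation test of 3 against 3 libraries is 0.1, so none was used.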

Additional observations from a re-analysis of the deposited data

Results flagged for a closer look

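The treatment effect differed between the days for 4 of the 10 genes in a test of the difference itself (edgeR, day 12 minus day 6). The difference on the log2 scale was 1.10 for KDM6B, 0.47 for KMT2D, -0.36 for KMT2A and -1.08 for NSD2, against 47.7% of all tested genes that passed the same test. The KMT2A difference did not pass in edgeR with transcript lengths as an offset (-0.19, adjusted p = 0.153) or with limma on the authors' table (-0.17, adjusted p = 0.175). That of KMT2D did not pass in edgeR with the length offset (0.58, adjusted p = 0.0619). For KMT2D the effects at the 2 days had opposite signs, -0.21 at day 6 and 0.27 at day 12, but the day 6 call held in 7 of 23 alternatives and its value was -0.10 (adjusted p = 0.672) with limma on the authors' table.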

How the results depend on the processing

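Of 1140 values of the 10 genes under the alternatives, 1018 kept their side of the threshold, 111 no longer passed and 11 newly passed. No value that passed in the main fit or in the alternative changed sign between them. Values that passed in neither could change sign, as that of CREBBP at day 12 did (-0.10 to 0.12). The number of the 10 genes called at day 6 was 1 at an adjusted p under 0.01. At day 12 it was 4 with only the libraries of the contrast, with transcript lengths as an offset, with limma on the authors' table at pseudocounts of 1 or 5, and at an adjusted p under 0.01. For day 12 against day 6 in treated cells it was 2 with the length offset and 3 with limma on the authors' table at either pseudocount. In vehicle cells it was 0 with the contrast's libraries only, the length offset, either limma fit and the stricter threshold, with 2 to 5 at an unadjusted p under 0.05. For the difference of effects it was 2 with the length offset. The causes were not tested. Leaving out each library in turn gave 1 to 3 at day 6, 5 to 7 at day 12, 5 to 6 in treated cells, 0 to 5 in vehicle cells and 4 to 5 for the difference. Over all genes, day 6 calls numbered 3235 with the length offset and 3404 at the stricter threshold, against 5126. Vehicle calls, 1985 otherwise, numbered 9 with the contrast's libraries only, 89 with the length offset, 142 and 137 with limma, 180 at the stricter threshold and 184 to 4182 with a library left out.

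The deviations of libraries with the same replicate number had correlations between -0.041 and 0.075. Whether the numbers pair the samples was not tested. With the replicate number as a block the counts were 3, 7, 6, 3 and 4, the same as without it. Summed reads of KDM6A are incomplete, and 3 libraries a group limit the detection of small changes.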
